A study of Homo sapiens with 4 samples.

Results

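The transcripts of 10 genes that act on histone mRNA or on methylation of lysine 20 of histone H4 (H4K20) were followed in liver cancer cells after silencing of CDCA8, out of 18398 transcripts listed for each library. NPAT, SLBP, CASP8AP2, LSM10, LSM11, ZNF473 and ERI1 are the 7 genes of histone mRNA synthesis and processing, and SETD8, SUV420H1 and SUV420H2 are the 3 genes of H4K20 methylation. SLBP and SETD8 were included because both fell in both cell lines, so their falls are a description and carry no test. The other 8 genes were included because their products act in the same steps. Each of the 10 symbols had 1 row per library.

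RNA was sequenced from Huh1 and Huh7, a pair of established human hepatocellular carcinoma (HCC) cell lines, after treatment with NCsiRNA or CDCA8siRNA. NCsiRNA is a negative control siRNA without an endogenous target, and CDCA8siRNA targets the mRNA of CDCA8 (borealin), a subunit of the chromosomal passenger complex that controls chromosome segregation. The comparison asked which transcripts accompany loss of CDCA8 in HCC cells. The 4 groups were Huh1 with NCsiRNA, Huh1 with CDCA8siRNA, Huh7 with NCsiRNA and Huh7 with CDCA8siRNA, and each was 1 library, so no spread between cultures could be measured and no test was run. The silencing was transient, and the study names 1 of its CDCA8 siRNA variants for the sequencing. In bulk RNA of this kind, fewer cells in a cell cycle phase and less RNA per cell cannot be told apart.

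The deposited values were RPKM, a read density that is divided by both the transcript length in kilobases and the read total of the library. The value of 1 read corresponded to between 12197606 and 13384836 reads per library. CDCA8 itself was at 24.1 RPKM in Huh1 with NCsiRNA and 5.86 with CDCA8siRNA, and at 51.5 and 7.36 RPKM in Huh7, as the labels say. All 8 hepatocyte markers looked at were detected, and the endothelial genes VWF and CDH5 stayed at or below 0.00923 RPKM. Of 3 leukocyte markers, PTPRC and CD3E stayed at or below 0.417 RPKM, while CD68 was at 23.3 and 16.5 RPKM in Huh1 and at 3.71 and 3.73 RPKM in Huh7. The hepatocyte markers were lower with CDCA8siRNA in 5 of 8 genes in Huh1 (median log2 fold change -0.25) and in 7 of 8 in Huh7 (median -0.47). Of all genes compared, 4915 of 10940 were lower in Huh1 and 5257 of 11565 in Huh7. The summed level of the hepatocyte markers was 6622 and 5947 RPKM in Huh1 and 6501 and 4680 RPKM in Huh7. Their part in the falls of the 10 genes was not tested. Of 3 fibroblast markers, COL1A1 was at 107 and 125 RPKM in Huh7 but at 0.115 and 0.122 RPKM in Huh1. It set the lines apart more than the siRNAs. COL3A1 was at 0 and 0.0414 RPKM in Huh1 and at 1.89 and 4.14 RPKM in Huh7, there a ratio of 2.2 (1.78 to 2.74). PDGFRB stayed at or below 0.399 RPKM. The intervals given with the values below are 95% intervals for the sampling of reads alone and hold no variation between cultures.

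Replication-dependent histone mRNAs are made in S phase and end in a stem-loop in place of a poly(A) tail. NPAT, a substrate of cyclin E and CDK2, drives their transcription in the histone locus body, SLBP binds the stem-loop, and the U7 snRNP, which holds LSM10 and LSM11, directs the cut behind it. On the new histone H4, SETD8 (KMT5A, also PR-Set7) places a single methyl group on lysine 20, and SUV420H1 (KMT5B) and SUV420H2 (KMT5C) add the further methyl groups. Both SLBP and SETD8 proteins are known to rise and fall with the cell cycle.

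The stem-loop that SLBP and ERI1 bind is shown here from GENCODE release 29 transcripts (GRCh38) of 4 histone H4 genes, since 3′ end processing of histone mRNA depends on it. The 16 bases of the stem-loop are in capitals and 5 bases on either side are in lower case.
HIST1H4H: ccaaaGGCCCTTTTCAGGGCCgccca
HIST1H4E: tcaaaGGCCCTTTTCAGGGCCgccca
HIST1H4J: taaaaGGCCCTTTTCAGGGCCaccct
HIST1H4I: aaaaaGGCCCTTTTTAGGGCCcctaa
The 16 bases were the same in HIST1H4H, HIST1H4E and HIST1H4J, and HIST1H4I differed from them within those bases. Of 13 H4 genes with a row in the files, 6 had an annotated transcript that reaches the stem-loop.

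Fold changes were taken where 1 or both libraries of a pair reached 1 RPKM, and all 10 genes met this minimum in both lines. Fold changes are differences of log2(RPKM + 1), which are smaller than the plain log2 ratio, the more so for low genes, and a gene was called at 2-fold on this scale. In Huh1, SETD8 was the 1 gene of the 10 that was at least 2-fold lower with CDCA8siRNA, against 0.174% of the 10940 genes compared. In Huh7, SLBP and SETD8 were at least 2-fold lower, against 0.700% of 11565 genes. Since both genes were chosen on these falls, nothing is read from these counts.

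At the milder mark of 1.5-fold on the same scale, 2 of the 10 genes were lower in Huh1 (SLBP and SETD8, against 1.27% of all genes) and 3 were lower in Huh7 (ERI1 in addition, against 3.42%). By plain RPKM ratio NPAT in Huh7 was also past this mark, at 65.4% of control. None of the 10 was 1.5-fold higher in Huh1, where 2.48% of all genes were, and none in Huh7, where 5.30% were. The median log2 fold change of the 10 genes was -0.13 in Huh1 and -0.16 in Huh7, beside 0.02 and 0.03 over all genes. Without SLBP and SETD8, the median of the remaining 8 genes was -0.10 in both lines, with 6 lower and 2 higher in each. Over all genes, 4915 of 10940 were lower in Huh1 and 5257 of 11565 in Huh7.

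**Figure D1:**
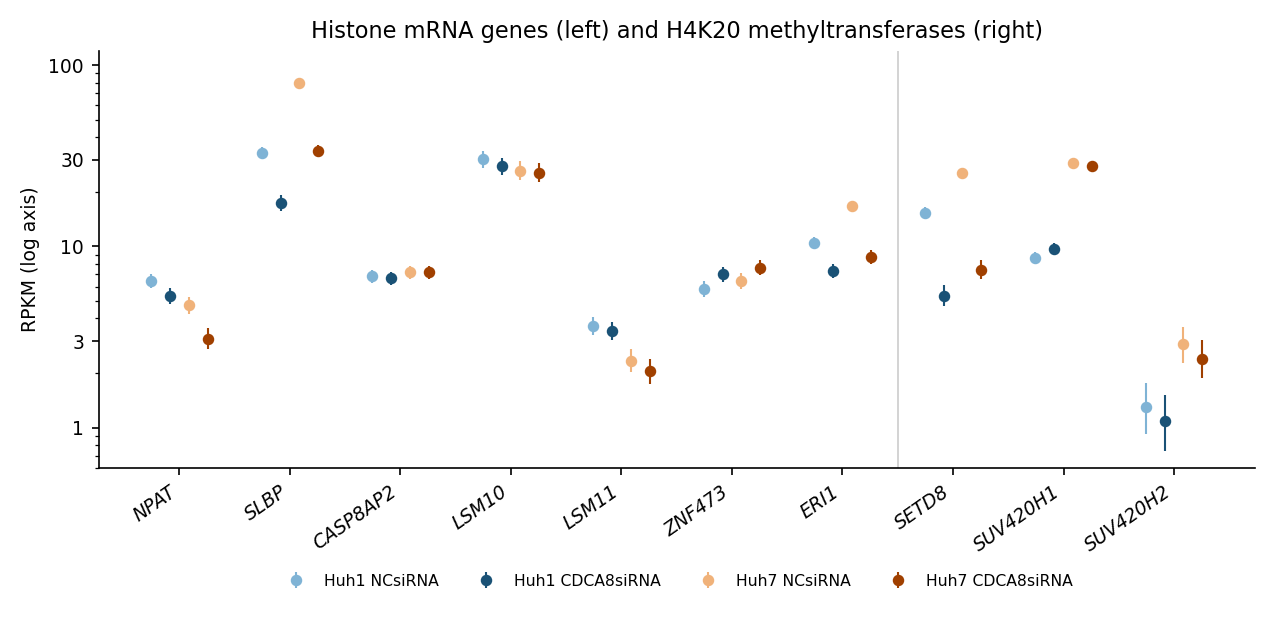
RPKM of the 10 genes in the 4 libraries on a log axis, with histone mRNA genes on the left and H4K20 methyltransferases on the right; points are single libraries and lines are 95% intervals for read sampling. SLBP ran from 17.3 to 79.3 RPKM and SETD8 from 5.35 to 25.4 RPKM, while CASP8AP2 stayed between 6.66 and 7.19 RPKM.

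NPAT, the coactivator of histone gene transcription (GRCh38 chr11:108157215-108222642, minus strand), was at 6.47 RPKM in Huh1 with NCsiRNA, 5.32 in Huh1 with CDCA8siRNA, 4.72 in Huh7 with NCsiRNA and 3.09 in Huh7 with CDCA8siRNA. Both CDCA8siRNA libraries were below their control, and the step from Huh1 with CDCA8siRNA to Huh7 with NCsiRNA was within read sampling (1.13, 0.975 to 1.3). The level with CDCA8siRNA was 82.3% of the control in Huh1 (72.2 to 93.8%) and 65.4% in Huh7 (55 to 77.6%), log2 fold changes of -0.24 and -0.48. These values rested on 225 to 514 reads per library. NPAT stands head to head with ATM and shares exon bases with it on the opposite strand, and strand use in the authors' counting is not given in the sources used here.

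CASP8AP2 encodes FLASH, which joins the U7 snRNP through LSM11 and helps to recruit the cleavage complex. Its level was 6.83 RPKM in Huh1 with NCsiRNA, 6.66 in Huh1 with CDCA8siRNA, 7.18 in Huh7 with NCsiRNA and 7.19 in Huh7 with CDCA8siRNA. The 4 libraries could not be ordered within read sampling error. The level with CDCA8siRNA was 97.5% of the control in Huh1 (86.5 to 110%) and 100% in Huh7 (88.7 to 113%), so a change of more than about these bounds was not seen at this depth.

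The subunits particular to the U7 snRNP also kept close to their controls. LSM10 was at 30.2 RPKM in Huh1 with NCsiRNA, 27.6 in Huh1 with CDCA8siRNA, 26.1 in Huh7 with NCsiRNA and 25.5 in Huh7 with CDCA8siRNA. LSM11, which carries the contact to FLASH, was at 3.65, 3.4, 2.34 and 2.04 RPKM in the same order. For LSM10 no neighbouring libraries differed beyond read sampling, and for LSM11 the step between the lines did, at 1.45-fold (1.21 to 1.76). LSM10 kept 91.1% of its control in Huh1 (77.9 to 107%) and 97.6% in Huh7 (82.1 to 116%). For LSM11 the shares were 93.3% (79.6 to 110%) and 86.9% (70.4 to 108%). Within a library the RPKM of LSM10 was 8.1 to 12.5 times that of LSM11, although the proteins sit in one ring.

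ZNF473 (ZFP100), a zinc finger protein that binds LSM11 in the processing complex, was the only one of the 10 genes above its control in both lines. Its level was 5.8 RPKM in Huh1 with NCsiRNA, 7.01 in Huh1 with CDCA8siRNA, 6.43 in Huh7 with NCsiRNA and 7.63 in Huh7 with CDCA8siRNA. The CDCA8siRNA libraries were the higher pair, but each step between neighbouring libraries was within read sampling. The ratio to the control was 121% in Huh1 (105 to 139%) and 119% in Huh7 (103 to 137%), log2 fold changes of 0.24 and 0.22. By comparison, 17.5% of all genes in Huh1 and 26.2% in Huh7 had a higher fold change. Its exons overlap those of VRK3 and of an antisense transcript on the opposite strand, so without strand some of its reads cannot be told from theirs.

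SLBP, the stem-loop binding protein that is needed for the cut, export and translation of histone mRNA, was the most abundant of the 10 transcripts in 3 of the 4 libraries (GRCh38 chr4:1692800-1712555, minus strand). It was at 32.7 RPKM in Huh1 with NCsiRNA, 17.3 in Huh1 with CDCA8siRNA, 79.3 in Huh7 with NCsiRNA and 33.5 in Huh7 with CDCA8siRNA. Huh7 with NCsiRNA stood above the other libraries, and Huh7 with CDCA8siRNA could not be told from Huh1 with NCsiRNA (ratio 1.02, 0.924 to 1.14). The level fell to 52.9% of the control in Huh1 (46.8 to 59.9%) and to 42.2% in Huh7 (38.6 to 46.1%). The log2 fold changes were -0.88 and -1.22, so Huh1 stayed inside the 2-fold mark and Huh7 went past it. At a length of 1725 nucleotides every SLBP value came out at whole reads, from 394 to 1669 per library.

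In Huh1 with CDCA8siRNA, LSM10 took the first place from SLBP among the 10 genes. The RPKM of SLBP was 5.05 times that of NPAT in Huh1 with NCsiRNA and 3.25 times with CDCA8siRNA, and 16.8 and 10.8 times in Huh7. SLBP was therefore further below its control than NPAT in both lines. These ratios follow the fall for which SLBP was chosen.

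ERI1 (3′hExo) is an exonuclease that sits on the stem-loop beside SLBP, trims the mature end and takes part in histone mRNA decay. It was at 10.4 RPKM in Huh1 with NCsiRNA, 7.31 in Huh1 with CDCA8siRNA, 16.6 in Huh7 with NCsiRNA and 8.73 in Huh7 with CDCA8siRNA. Each step in that order of levels exceeded read sampling, and the order of the libraries was Huh7 control, Huh1 control, Huh7 CDCA8siRNA, Huh1 CDCA8siRNA. ERI1 kept 70.2% of its control in Huh1 (62 to 79.2%) and 52.4% in Huh7 (46.9 to 58.5%), log2 fold changes of -0.46 and -0.86. Of all genes compared, 2.94% in Huh1 and 1.11% in Huh7 had a lower fold change than ERI1. It was the lowest of the 8 genes that were not chosen for their fall. The RPKM ratio of SLBP to ERI1 was 3.14 and 4.76 in the Huh1 and Huh7 controls and 2.37 and 3.84 with CDCA8siRNA. SLBP was thus also further below its control than ERI1 in both lines, which again follows the fall for which SLBP was chosen.

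SETD8, the enzyme that starts H4K20 methylation, had the largest fall of the 10 (GRCh38 chr12:123383773-123409358, plus strand). It was at 15.2 RPKM in Huh1 with NCsiRNA, 5.35 in Huh1 with CDCA8siRNA, 25.4 in Huh7 with NCsiRNA and 7.44 in Huh7 with CDCA8siRNA. Both CDCA8siRNA libraries lay below both controls, and every step between neighbouring libraries exceeded read sampling. The level fell to 35.2% of the control in Huh1 (30.1 to 41.1%) and to 29.3% in Huh7 (25.6 to 33.5%), log2 fold changes of -1.35 and -1.64. From the lowest fold change upward, SETD8 was in place 5 of 10940 genes in Huh1 and in place 10 of 11565 in Huh7, and SLBP was in places 34 and 38. SETD8 values were not at whole reads at any length searched, so the read numbers behind its intervals are approximate. The annotation also holds a processed pseudogene, SETD8P1, and how the authors placed reads that align to several loci is not given in the sources used here.

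The later enzymes of H4K20 methylation stayed nearer to their controls than SETD8. SUV420H1 was at 8.63 RPKM in Huh1 with NCsiRNA, 9.66 in Huh1 with CDCA8siRNA, 29 in Huh7 with NCsiRNA and 27.7 in Huh7 with CDCA8siRNA. SUV420H2 was the scarcest or next to scarcest of the 10, at 1.29, 1.09, 2.88 and 2.4 RPKM in the same order. In both genes the Huh7 libraries lay above the Huh1 libraries, whichever siRNA was used. SUV420H1 was at 112% of its control in Huh1 (101 to 124%) and 95.6% in Huh7 (89.9 to 102%). SUV420H2 was at 84.6% in Huh1 (51.1 to 136%) and 83.5% in Huh7 (59.6 to 117%), on 33 to 81 reads, so both intervals run from a fall to a rise.

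The methyltransferases were also set against each other within a library, where the ratio follows the fall for which SETD8 was chosen. The RPKM of SUV420H1 was 0.567 times that of SETD8 in Huh1 with NCsiRNA and 1.8 times with CDCA8siRNA. In Huh7 the ratio was 1.14 with NCsiRNA and 3.73 with CDCA8siRNA. SUV420H1 thus stood above SETD8 in both CDCA8siRNA libraries and in the Huh7 control. Between SUV420H1 and SUV420H2 the ratio was 6.67 and 8.82 in Huh1 and 10.1 and 11.6 in Huh7.

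**Figure D2:**
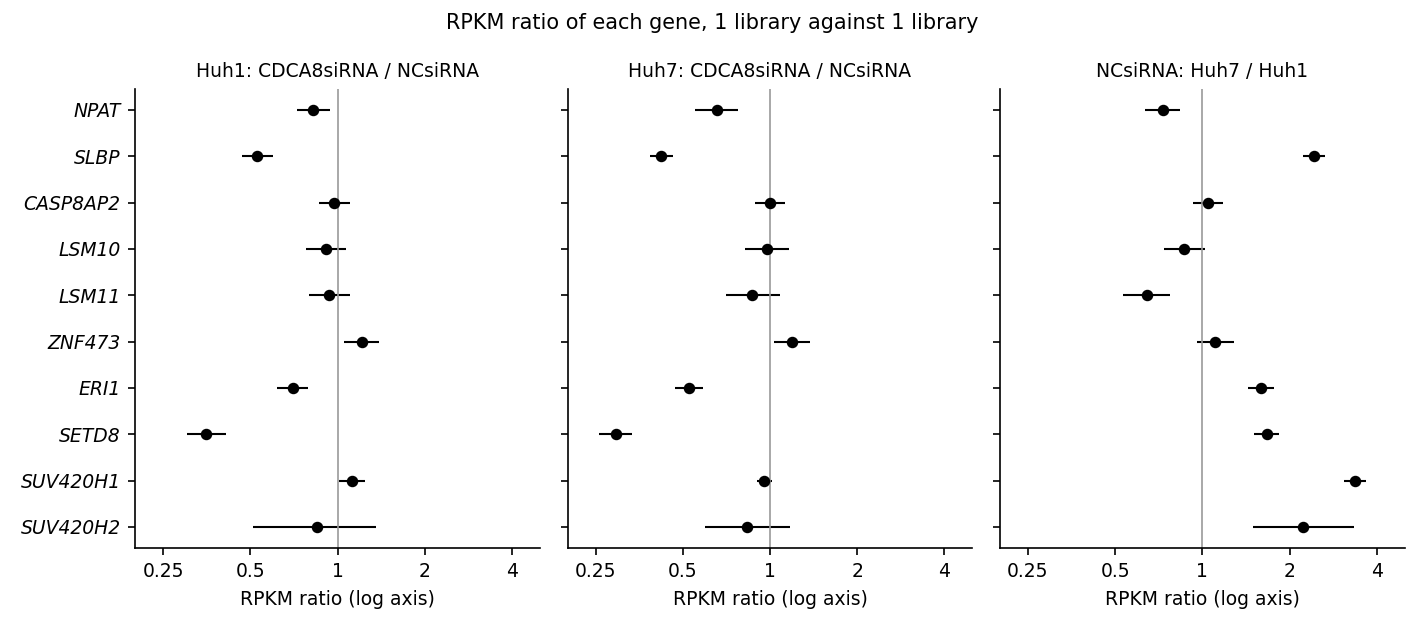
RPKM ratio of each of the 10 genes for CDCA8siRNA over NCsiRNA in Huh1 and in Huh7, and for Huh7 over Huh1 with NCsiRNA, on log axes; points are ratios of 1 library to 1 library and lines are 95% intervals for read sampling. SETD8 lay furthest to the left in both lines at 35.2% and 29.3% of control, and SUV420H1 furthest to the right between the lines at 3.36-fold.

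The response was then compared between the lines, gene by gene. The log2 RPKM ratio in Huh7 minus that in Huh1 was -0.33 for SLBP (-0.54 to -0.11) and -0.33 for NPAT (-0.64 to -0.03). For ERI1 the difference was -0.42 (-0.66 to -0.19) and for SUV420H1 -0.23 (-0.40 to -0.05). For SETD8 it was -0.26 with an interval that reached 0.03, and in the remaining 5 genes the interval also held 0. These intervals cover read sampling only. Over all genes compared, 54 of 10940 were past 2-fold in either direction in Huh1 and 182 of 11565 in Huh7. Past 1.5-fold the counts were 410 and 1009. Larger changes in Huh7 were therefore not particular to SLBP, NPAT and ERI1. With 1 library per condition, no difference between the lines could be set apart from variation between cultures. CDCA8 was also left at a lower share in Huh7 (14.3%) than in Huh1 (24.3%), and the part of this in the differences between the lines was not tested.

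**Figure D3:**
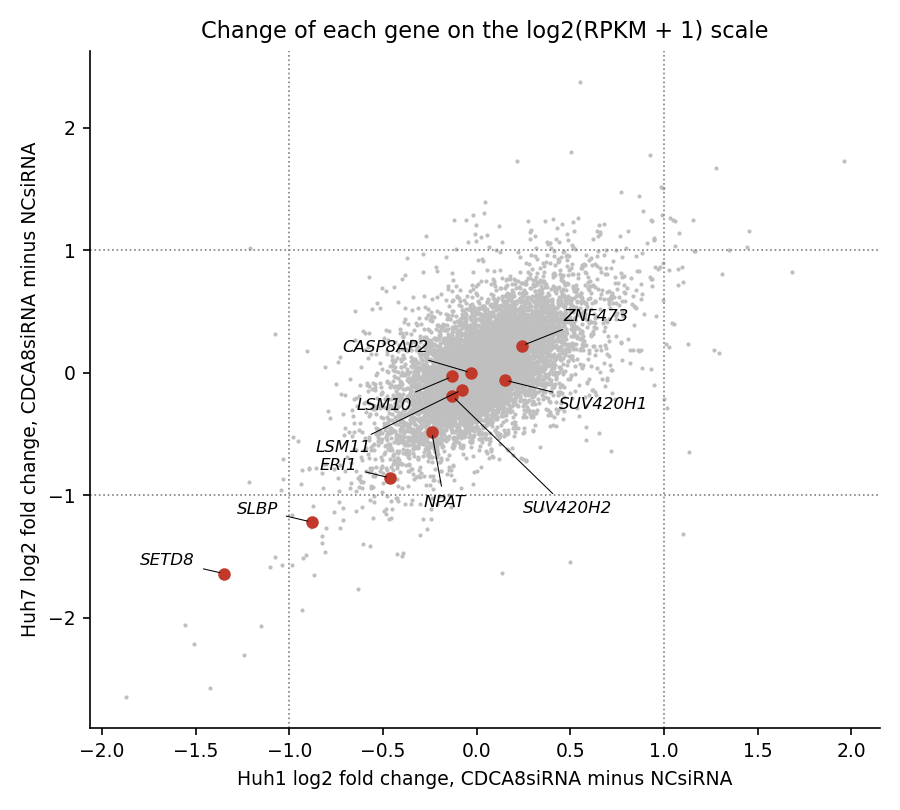
Log2 fold change (CDCA8siRNA minus NCsiRNA, log2(RPKM + 1) scale) of every gene in Huh1 on the horizontal axis and in Huh7 on the vertical axis; grey points are all genes at or above the minimum in both lines, red points the 10 genes, and dotted lines the 2-fold mark. SETD8 (-1.35, -1.64) and SLBP (-0.88, -1.22) lay to the lower left of most of the cloud. ERI1 (-0.46, -0.86) lay nearer to it, with 2.94% of genes lower in Huh1 and 1.11% in Huh7. The other 7 genes lay within the cloud.

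The lines already differed under NCsiRNA. Of the 10 genes, 2 were at least 2-fold higher in Huh7 than in Huh1 on the log2(RPKM + 1) scale, SLBP and SUV420H1, where 17.0% of 11896 genes were, and none was at least 2-fold lower, where 10.2% were. The RPKM of SUV420H1 was 3.36-fold higher in Huh7 (3.08 to 3.67), a value passed by 7.43% of genes on the log2 scale. SLBP was 2.43-fold higher (2.22 to 2.65) and SUV420H2 2.22-fold (1.5 to 3.33, a log2 difference of 0.76 with the added 1). SETD8 was 1.67-fold higher (1.51 to 1.84) and ERI1 1.6-fold (1.44 to 1.77). On the log2 scale 12.2% of genes passed SLBP, 23.2% SUV420H2, 24.9% SETD8 and 27.4% ERI1. LSM11 and NPAT were lower in Huh7, at 0.643 times (0.534 to 0.772) and 0.73 times (0.635 to 0.839) the level of Huh1. SLBP, ERI1 and SETD8 were higher in the Huh7 control than in the Huh1 control, and lower in each CDCA8siRNA library than in the control of its line. The Huh7 control is 1 library that enters both comparisons, and SLBP and SETD8 were chosen on the falls. Nothing is therefore read from this pairing.

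Promoter windows from RefSeq (GRCh38.p14, from 250 bases before to 50 bases after the start) were found for 8 of the 10 genes in 11 windows; ZNF473 and ERI1 were not in the table. The windows of SLBP and SETD8, which fell, and of CASP8AP2, which stayed level, are shown on the strand of the gene, with motif matches in capitals.
SLBP, chr4:1712270-1712569, minus strand: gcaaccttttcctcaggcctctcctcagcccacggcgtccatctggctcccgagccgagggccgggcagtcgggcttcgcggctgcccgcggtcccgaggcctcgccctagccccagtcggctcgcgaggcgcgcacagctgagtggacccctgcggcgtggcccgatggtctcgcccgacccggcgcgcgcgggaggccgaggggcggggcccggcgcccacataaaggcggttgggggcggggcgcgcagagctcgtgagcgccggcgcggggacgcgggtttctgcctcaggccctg
SETD8, first window, chr12:123383882-123384181, plus strand: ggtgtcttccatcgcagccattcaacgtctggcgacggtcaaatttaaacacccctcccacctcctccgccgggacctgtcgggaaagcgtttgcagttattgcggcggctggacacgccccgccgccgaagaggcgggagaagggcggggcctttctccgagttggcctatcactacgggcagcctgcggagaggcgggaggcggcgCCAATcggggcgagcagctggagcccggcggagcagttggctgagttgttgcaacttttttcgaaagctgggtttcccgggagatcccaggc
CASP8AP2, chr6:89829630-89829929, plus strand: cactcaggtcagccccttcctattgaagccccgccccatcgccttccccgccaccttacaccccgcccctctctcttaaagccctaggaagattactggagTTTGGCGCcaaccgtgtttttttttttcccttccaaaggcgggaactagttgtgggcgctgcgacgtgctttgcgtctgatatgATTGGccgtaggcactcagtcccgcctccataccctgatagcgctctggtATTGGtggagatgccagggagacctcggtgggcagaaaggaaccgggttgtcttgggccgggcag
The motifs were searched on both strands as the E2F words TTTCCCGC, TTTCGCGC, TTTGCCGC and TTTGGCGC, the CCAAT box as CCAAT, the CHR element as TTTGAA and the TATA box as TATAAA. None of these words was in the SLBP window, the SETD8 window held 1 CCAAT, and the CASP8AP2 window held 1 E2F word (TTTGGCGC) and 2 CCAAT boxes on the other strand (ATTGG). Over the 8 genes with a window, 1 gene had an E2F word, 5 had CCAAT, 1 had TTTGAA (LSM11) and 0 had TATAAA. Among all 34943 windows, 3.3% held an E2F word, 34.6% CCAAT, 15.2% TTTGAA and 11.6% TATAAA. These shares are per window, while the counts of the 8 genes take a match in any window of a gene, so the 2 cannot be compared directly. A match describes letters in this window only.

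Genes with the pattern across the 4 libraries nearest to SLBP and SETD8 were taken from 8690 genes with a mean of at least 5 RPKM, by Euclidean distance of centred log2(RPKM + 1). Nearest to SLBP was NUSAP1, a microtubule-binding protein of the spindle, at a distance of 0.25, with 37.7 and 17.4 RPKM in Huh1 and 95.3 and 32.8 RPKM in Huh7. TMEM50A (0.30), COMMD1 (0.30), SCML2 (0.36) and TMEM176A (0.37) followed. Nearest to SETD8 were CPNE3 (0.37), CCNC (0.40), APOC3 (0.44), CCDC115 (0.48) and HMGN2 (0.53), of which CCNC encodes cyclin C and HMGN2 a nucleosome-binding protein. With 4 libraries, such likeness is a description, and it follows in part the falls for which SLBP and SETD8 were chosen. Functions are given for only some of these genes, and no common theme is read from them.

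Around the 10 genes, factors that histone mRNA shares with other transcripts were counted in the same way, against the shares of all genes past 1.5-fold given above. Of 11 cleavage factors shared with polyadenylation, 0 were past 1.5-fold in either line, a count too small to set apart from those shares, and their median log2 fold change was 0.02 in Huh1 and -0.07 in Huh7. The log2 fold changes of CSTF2T, a cleavage stimulation factor, were 0.27 and 0.36, and those of CPSF4 were -0.25 in both lines. CSTF2, the X-linked relative of CSTF2T, was at -0.26 and -0.13. Of the 5 Sm proteins that the U7 ring shares with spliceosomal snRNPs, 4 in Huh1 and 5 in Huh7 were below control, with medians of -0.11 and -0.24. The counts below control over all genes were 4915 of 10940 and 5257 of 11565. SNRPG had -0.26 and -0.57, SNRPB -0.13 and -0.34 and SNRPD3 -0.04 and -0.24.

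The 7 cap-binding and elongation factors matched had medians of -0.00 and -0.05 and none past 1.5-fold. NCBP2, the small cap-binding subunit, was at -0.20 and -0.27, WHSC2 at 0.18 and 0.09, and TH1L at 0.08 and -0.18, the last a pair of NELF subunits under older symbols. The 17 genes of histone mRNA translation and decay had medians of 0.04 and -0.08, with 0 past 1.5-fold on the log2(RPKM + 1) scale. DCP2, the decapping enzyme, was at 7.8 and 11.7 RPKM in Huh1 and at 8.34 and 12.5 RPKM in Huh7, a log2 fold change of 0.53 in both. CTIF, which links the cap to histone mRNA translation, was at 3.76 and 4.7 RPKM in Huh1 and at 4.86 and 7.79 RPKM in Huh7, a plain ratio of 1.6 in Huh7 and log2 fold changes of 0.26 and 0.58. The exonuclease DIS3L2 had log2 fold changes of 0.36 and 0.18.

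Regulators of SLBP, NPAT and SETD8 spread more widely. The counts below stand beside 4915 of 10940 genes below control in Huh1 and 5257 of 11565 in Huh7. Of 8 genes for cell cycle control of NPAT and SLBP, 6 were below control in Huh1 and 7 in Huh7, with medians of -0.21 and -0.16. CCNE1, which encodes cyclin E1, had 4.8 and 3 RPKM in Huh1 and 14 and 7.8 RPKM in Huh7, log2 fold changes of -0.54 and -0.77. CDK1 had -0.19 and -0.60, and CCNE2 had -0.23 and -0.32. CCNE1 and, only just, CDK1 were the 2 of those 8 genes at least 1.5-fold lower in Huh7, where 3.42% of all genes were. Of 12 genes for the ubiquitin ligases that control SETD8 and for partners and other substrates of these, 6 were below control in Huh1 and 8 in Huh7. Their medians were -0.05 and -0.06. PCNA, on which SETD8 is marked for degradation, had -0.57 and -1.42, and DTL, the Cdt2 substrate receptor, -0.27 and -0.91. CDKN1A, another substrate of that ligase, had -0.65 and 0.51.

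Of the demethylases and readers of H4K20, 9 genes were at or above the minimum in Huh1 and 10 in Huh7, with medians of -0.00 and -0.07. PHF2, a Jumonji demethylase, was at 7 and 5.12 RPKM in Huh1 and at 7.79 and 3.17 RPKM in Huh7, log2 fold changes of -0.39 and -1.08. It was the 1 gene of that list past 2-fold, in Huh7, where 0.700% of all genes were at least 2-fold lower. L3MBTL1, a reader of methylated H4K20, had 0.14 and 0.42, and MSH6, a mismatch repair protein better known for binding methylated histone H3, -0.15 and -0.41. The 6 other writers of the H4 tail had medians of -0.14 and -0.16. NAA40, which acetylates the H4 amino terminus, had 0.37 and -0.20, while the acetyltransferases KAT8 (-0.20 and -0.22) and KAT7 (-0.21 and -0.16) were close in both lines.

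**Figure D4:**
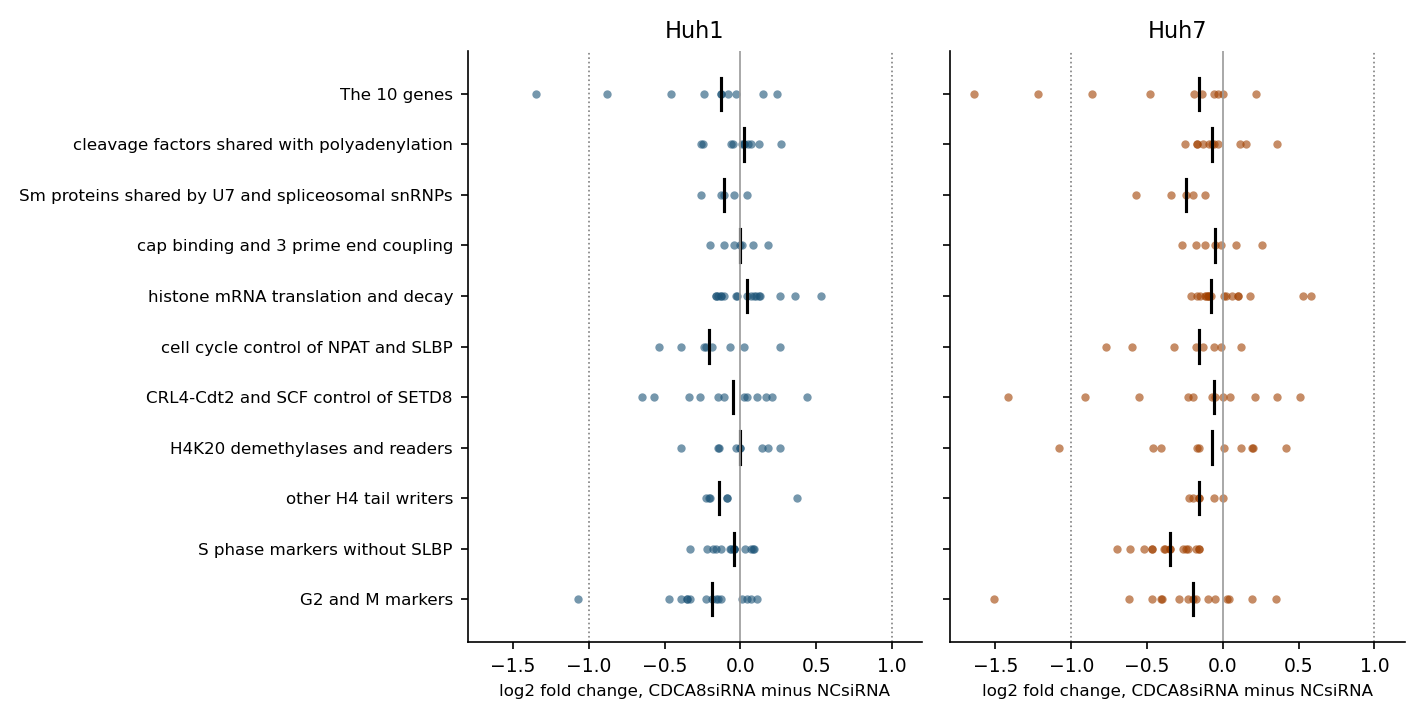
Log2 fold change of the genes of each list in Huh1 (left) and Huh7 (right); points are genes, black bars are list medians and dotted lines mark 2-fold. The medians of the 10 genes were -0.13 and -0.16, and that of the S phase markers without SLBP was -0.04 in Huh1 and -0.35 in Huh7.

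Markers of S phase and of G2 and M were measured in the same libraries, where 4915 of 10940 genes were below control in Huh1 and 5257 of 11565 in Huh7. Of 15 S phase markers other than SLBP, 11 were below control in Huh1 (median log2 fold change -0.04) and 15 in Huh7 (median -0.35). Their summed level was 858 and 833 RPKM in Huh1 and 1125 and 889 RPKM in Huh7, with RRM2 at -0.33 and -0.61, MCM6 at -0.06 and -0.70 and TYMS at -0.22 and -0.52. Of 15 G2 and M markers, 11 were below control in both lines and 4 above (medians -0.19 and -0.20), and their sum was 821 and 681 RPKM in Huh1 and 1447 and 1208 RPKM in Huh7. NUSAP1 (-1.07 and -1.51), PLK1 (-0.47 and -0.62) and TOP2A (-0.39 and -0.41) led that list. The part of cell cycle phase in the levels of SLBP, ERI1 and SETD8 was not tested.

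The substrates of these enzymes, the histone H4 genes, were near the floor of the libraries. Of 13 H4 genes with a row, 5 in Huh1 and 4 in Huh7 reached the minimum, and their summed level was 13 and 13.4 RPKM in Huh1 and 3.09 and 8.62 RPKM in Huh7. HIST1H4H was at 4.39 and 5.27 RPKM in Huh1 and at 0.219 and 3.05 RPKM in Huh7, the last pair about 1 and 15 reads, a ratio of 13.9 with an interval from 2.29 to 628. HIST1H4E was at 1.19, 1.41, 0.217 and 1.08 RPKM and HIST1H4J at 2.1, 2.55, 0.461 and 1.26 RPKM in the same order of libraries. HIST1H4D had 1.02 RPKM in Huh1 with NCsiRNA and was listed at 0 with CDCA8siRNA, and 0.223 and 0.666 RPKM in Huh7. The 4 genes compared in Huh7 reached the minimum only in the library with CDCA8siRNA, so that they were above their control was fixed by the minimum and is no result. In Huh1, 4 of the 5 genes compared were above their control, each with an interval that ran from a fall to a rise. The 1 gene below, HIST1H4D, reached the minimum only in its control, at about 4 reads, so its direction was also fixed by the minimum. The H4 genes are near-identical copies that can share reads, and whether the library step kept RNA without a poly(A) tail is not given in the sources used here.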

How the data were processed

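Total RNA of 4 cultures, 1 for each cell line and siRNA, was sequenced from TruSeq RNA libraries. The submitters' processing notes name CASAVA 1.8.2, TopHat2 2.0.9 and hg19. The authors deposited RPKM values for 18398 RefSeq transcripts per library without a stated unit, which was deduced from the values. Samples were grouped by their labels. The members and gene lists were chosen with earlier results of these data known.

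Fold changes were differences of log2(RPKM + 1) over genes that reached 1 RPKM in 1 or both libraries compared, called at 2-fold. No test was run. Reads behind a value were taken from the value of 1 read and the transcript length. For 4 of the 10 genes (SLBP, NPAT, LSM10, ZNF473) a length between 200 and 12000 nucleotides gave whole reads in all libraries within 0.002, and for the other 6 the GENCODE 29 length was used, so their read numbers and intervals are approximate. Of low genes, 35.1 to 38.1% were at whole reads within 0.05 at the GENCODE length. Ratio intervals were exact (Clopper-Pearson), level intervals exact Poisson, and differences of log2 ratios used a normal approximation. All cover counting error only.

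Every member is named. In each list, the 3 genes with the largest mean absolute log2 fold change and any past 2-fold are named. Symbols without a row (HIST2H4A, HIST2H4B, UHRF1, PECAM1) were not analysed here, and CDC45 was matched by its current symbol. Alternatives were a pseudocount of 0.1 RPKM, no minimum, a minimum of 5 RPKM, upper quartile scaling, quantile normalization and a 1.5-fold call. Leaving out the pseudocount was added after seeing the data. Python 3.11.15 with numpy 2.4.6, pandas 2.3.3, scipy 1.17.1 and matplotlib 3.10.9 was used, and the scripts were tested on simulated data.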

Additional observations from a re-analysis of the deposited data

Results flagged for a closer look

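Some genes had log2 fold changes of opposite sign in Huh1 and Huh7, and with 1 library per condition the difference between the lines was not tested. Among the 10 genes these were CASP8AP2 (-0.03 and 0.00, which is barely above 0, a Huh7 minus Huh1 difference of 0.03) and SUV420H1 (0.15 and -0.06, a difference of -0.21). Among the list genes named, CDKN1A had -0.65 and 0.51, a difference of 1.16, NAA40 had 0.37 and -0.20, a difference of -0.56, and TH1L had 0.08 and -0.18, a difference of -0.26.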

How the results depend on the processing

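No paired analysis was possible because no result comes from a test, and with 1 library per condition there was no replicate to leave out. Over all genes, the counts past 2-fold (54 in Huh1, 182 in Huh7, 3239 for Huh7 against Huh1) became 164 in Huh1 and 422 in Huh7 with a pseudocount of 0.1 RPKM, which shrinks low genes less. At a 1.5-fold call they became 410 of 10940, 1009 of 11565 and 5676 of 11896 genes. The members past that call went from 1 to 2 in Huh1 and from 2 to 5 for Huh7 against Huh1, the last near the share of all genes. With a pseudocount of 0.1 RPKM, 3 of the 10 members were 2-fold apart between the lines, SUV420H2 in addition, where 3962 of 11896 genes were. At that pseudocount NPAT in Huh7 had -0.60 in place of -0.48. Quantile normalization moved the median of all genes between the lines by -0.14. With it, 52.4% in place of 64.8% of the Huh1 calls were higher (22 higher and 20 lower, in place of 35 and 19), as were 52.2% in place of 62.6% between the lines (1644 and 1504, in place of 2028 and 1211). All 160 single-gene values of the 10 genes under the alternatives lay within their counting interval. Their sign differed in 3, all under quantile normalization: CASP8AP2 (-0.06 in place of 0.06) and ZNF473 (-0.02 in place of 0.13) between the lines, and the CASP8AP2 line difference (-0.02 in place of 0.03). The read numbers limit SUV420H2 and the H4 genes most.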
